A study of Mus musculus with 6 samples.

Results

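The BCL2 family comprises the proteins that decide whether a cell commits to the mitochondrial route of apoptosis, and 10 of its genes are described here in the testis of mice in which signalling through Ret was targeted. The members were chosen by gene name as 6 genes that promote cell death (Bax, Bak1, Bid, Bbc3, Pmaip1 and Bcl2l11) and 4 that oppose it (Bcl2, Bcl2l1, Bcl2l2 and Mcl1). All 10 were found among the 23361 genes of the deposited table, and all 10 passed the filter on low counts that left 16658 genes for testing. RNA came from whole testes of 6 C57BL/6J mice aged about 120 days, and in every mouse both copies of Ret carried the V805A substitution. Ret is the receptor kinase for glial cell line-derived neurotrophic factor (GDNF), which supports spermatogonial stem cells. The 3 control mice were injected daily for 9 days with saline, cremophor and ethanol, and the 3 inhibitor mice with the same vehicle containing 1NaPP1-HCl. Testes were taken on day 14, after 5 days without injections. All mice carried the substitution, so no group shows the effect of the compound without it, and all values are for whole testis. In such samples, fewer cells of a type and less RNA per cell cannot be told apart.

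In the mitochondrial route, Bax and Bak are the effectors that permeabilise the outer mitochondrial membrane and release cytochrome c. The proteins Bcl-2, Bcl-xL (encoded by Bcl2l1), Bcl-w (Bcl2l2) and Mcl-1 hold the effectors in check, and the BH3-only proteins Bid, Puma (Bbc3), Noxa (Pmaip1) and Bim (Bcl2l11) relieve that restraint or activate the effectors directly. Germ cell death is a normal part of spermatogenesis, and the family is known for its place in it. Male mice without Bax, or without Bcl-w, are sterile, and reduced Bcl-xL lowers the survival of germ cells. Many of these proteins are controlled after transcription, by cleavage, phosphorylation or degradation, which RNA levels do not show.

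The libraries held between 23144295 and 43127892 fragments assigned to genes, so that a level of 1 CPM (fragment counts scaled to library size) rested on 23.1 to 43.1 fragments. The labels give no batch. In the series as a whole, 26 of the 16658 genes passed the edgeR quasi-likelihood test at a Benjamini-Hochberg adjusted p of 0.05, which is 0.156%, with 10 higher and 16 lower in the inhibitor mice. Of 8 markers of undifferentiated spermatogonia, a list chosen with earlier results known, 4 fell (Ret, Sox3, Lin28a and Zbtb16), and the summed level of the list was 37.9 to 42.2 CPM in controls and 19.6 to 24.3 CPM with the inhibitor. All 5 spermatocyte markers had fold changes above 1, none past the threshold, with summed levels of 4841 to 5130 and 5359 to 5648 CPM. The 6 Sertoli cell markers summed to 1072 to 1115 and 959 to 1237 CPM, none past the threshold. Most of that sum was Clu, with means of 992 CPM in controls and 955 CPM with the inhibitor. All 6 Sertoli log2 fold changes were below 0, and only Amh had groups without overlap (−0.65, edgeR adjusted p = 0.117). No listed marker of these 3 cell types was at 0 in all libraries. The library of inhibitor mouse 3 stood apart, in that 2405 genes passed without it.

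None of the 10 family genes passed the threshold in either direction. At an unadjusted p of 0.05, 3 members were lower with the inhibitor and 0 higher, where 8.48% of all tested genes were lower and 9.43% higher. These 3, Bax, Bid and Bcl2l11, were also the members whose groups did not overlap, beside 22.9% of tested genes that did not overlap in either direction and 11.9% that did so with lower values in the inhibitor mice. The median log2 fold change of the 10 members, inhibitor over control, was −0.03, and that of all tested genes was −0.0041. The smallest adjusted p among the members was 0.178 in the edgeR test. DESeq2 gave an adjusted p for 5 of the 10 and called none of them, with 2 lower at an unadjusted p of 0.05, and limma-voom also called none, with 3 lower. The markers of undifferentiated spermatogonia were lower too, with 8 of 8 log2 fold changes below 0, and their part in the differences of these 3 genes was not tested.

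The 200 bases upstream of the start site are shown for the members whose groups did not overlap, Bax, Bid and Bcl2l11, as RefSeq gives them for GRCm38.p6. Such a window was found for 9 of the 10 members. Capitals mark the GC box GGGCGG, the known binding sequence of Sp1-type factors, and the CCAAT box CCAAT, each on either strand, and each sequence runs 5′ to 3′ in the direction of the gene.
Bax, chr7:45466899-45467098, reverse strand: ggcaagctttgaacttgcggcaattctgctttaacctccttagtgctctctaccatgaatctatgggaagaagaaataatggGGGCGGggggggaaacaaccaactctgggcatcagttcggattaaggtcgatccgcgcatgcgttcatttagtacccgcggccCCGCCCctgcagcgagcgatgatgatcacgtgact
Bid, chr6:120916825-120917024, reverse strand: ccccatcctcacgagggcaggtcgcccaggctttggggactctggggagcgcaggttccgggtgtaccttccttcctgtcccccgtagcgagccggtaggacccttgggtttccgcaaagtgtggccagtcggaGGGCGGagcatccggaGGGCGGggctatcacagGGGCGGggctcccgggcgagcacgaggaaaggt
Bcl2l11, chr2:128125838-128126037, forward strand: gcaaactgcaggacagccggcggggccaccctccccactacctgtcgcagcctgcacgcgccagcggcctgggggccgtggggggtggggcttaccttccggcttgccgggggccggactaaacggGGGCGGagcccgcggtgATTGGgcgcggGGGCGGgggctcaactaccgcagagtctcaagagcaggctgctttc
A GC box was present 2 times upstream of Bax, 3 times upstream of Bid and 2 times upstream of Bcl2l11, and 31.0% of all 32851 such windows held at least 1. It was not limited to these members. Windows of Bbc3 (5 matches in the one nearest the annotated gene start), Bcl2 (6), Bcl2l2 (1) and Mcl1 (1) held it too, and those of Bak1 and Bcl2l1 did not. The GC content of the window was 53.5% for Bax, 68.5% for Bid and 72.5% for Bcl2l11. In the nearest windows of Bbc3, Bcl2, Bcl2l2 and Mcl1 it was 66.5% to 81.0%. Without the box, Bak1 was at 62.5% and Bcl2l1 at 50.5%. The share of 31.0% was not matched for GC content, and the part of GC content in these matches was not tested. A CCAAT box was found upstream of Bcl2l11, as in 29.3% of all windows, and the TATA box TATAAA, found in 10.0% of all windows, in none of the windows nearest each member's start. The E-box CACGTG, found in 5.26% of all windows, occurred 1 time upstream of Bax. The FOXO motif GTAAACA, present in 2.51% of all windows, and the p53 half-site consensus, present in 5.59%, had no match in the windows of Bax, Bid or Bcl2l11, which says only that these letters are not within these 200 bases.

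Bax, one of the effectors, stood at 6.53, 8.57 and 6.94 CPM in controls 1, 2 and 3 and at 6.22, 5.38 and 5.46 CPM in inhibitor mice 1, 2 and 3. The groups did not overlap, although control 1 and inhibitor mouse 1 lay close together and control 2 was well above the other controls. The means were 7.34 ± 1.08 and 5.69 ± 0.465 CPM (SD, n = 3 per group), a log2 fold change of −0.38 (SE 0.135, 95% interval −0.67 to −0.08) that did not pass over all genes (adjusted p = 0.178, edgeR quasi-likelihood test). The coefficient of variation between controls was 14.7%, and counting alone gave 7.41% on average over all 6 libraries. Without control 2 the log2 fold change was −0.24 (edgeR adjusted p = 0.551). In GRCm38, Bax occupies chromosome 7 between 45461697 and 45466898 (reverse strand), and its longest annotated transcript has 5 exons. It shares 192 exonic bases with Gm45808, a gene model on the same strand that was not analysed here.

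Bak1, the other effector, stood at 10.2, 10.3 and 10.9 CPM in controls and 11.1, 10.7 and 11.5 CPM with the inhibitor. The groups overlapped, and the log2 fold change of 0.09 had a 95% interval of −0.11 to 0.28 (edgeR adjusted p = 0.643). The interval leaves room for a level between 0.929 and 1.22 times that of controls. Bak1 (chromosome 17, 27019810 to 27029009, reverse strand) shares exonic bases with Ggnbp1, a gene on the opposite strand, named here after its values were seen. Ggnbp1 had 15002 to 30024 fragments per library, against 245 to 451 for Bak1. Whether the counting separated the strands is not given in the sources used here. Part of the Bak1 count may therefore belong to its neighbour.

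Of the BH3-only genes, Bid and Bcl2l11 were the members without overlap. Bid encodes the protein that caspase-8 cleaves to link death receptors to mitochondria. It stood at 2.88, 3.24 and 3.47 CPM in controls and 2.12, 2.45 and 2.59 CPM with the inhibitor. Every control lay above every inhibitor mouse. The log2 fold change was −0.43 (SE 0.162, 95% interval −0.78 to −0.07), the lowest estimate in the family, with adjusted p = 0.198 in the edgeR test. The level was low, resting on 56 to 142 fragments per library, and counting alone gave a coefficient of variation of 11.3%. Bid (chromosome 6, 120891930 to 120916853, reverse strand) shares 628 exonic bases with another family gene on the opposite strand, Bcl2l13. Bcl2l13 had 1050 to 2117 fragments per library and a log2 fold change of 0.02. As for Bak1, the strand setting of the counting is not given, so part of the Bid count may belong to this neighbour.

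Bcl2l11 encodes Bim, the BH3-only protein that is known to rise when cells lose growth factor support, partly through FOXO transcription factors. It stood at 9.05, 9.30 and 9.35 CPM in controls and 7.61, 8.09 and 7.28 CPM with the inhibitor, so that the inhibitor mice were lower. The 3 controls had a coefficient of variation of 1.74%, which is narrower than the 6.45% that counting alone gives on average over all 6 libraries. The log2 fold change was −0.27 (SE 0.099, 95% interval −0.49 to −0.06), equal to 0.828 times the control level, and did not pass (edgeR adjusted p = 0.184). After correction for transcript length and GC content in each library it was −0.22, while Bax was at −0.32 and Bid at −0.43. Bcl2l11 (chromosome 2, 128126038 to 128162547, forward strand) has 8 annotated transcripts, of which 5 are protein-coding. A count per gene does not separate the several Bim isoforms.

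Bbc3 encodes Puma, a direct target of p53 after DNA damage, and it stood at 1.64, 2.26 and 2.14 CPM in controls and 1.70, 1.71 and 1.54 CPM with the inhibitor. Control 1 fell among the inhibitor mice, and the log2 fold change of −0.30 had a 95% interval of −0.72 to 0.11 (edgeR adjusted p = 0.435). After the length and GC correction it was −0.18, and by limma on log2(FPKM + 1), a scale that understates changes of low genes, −0.14. Pmaip1 encodes Noxa, which binds mainly Mcl-1 and is another p53 target. Its values were 5.13, 4.28 and 5.00 CPM in controls and 3.86, 4.11 and 5.74 CPM with the inhibitor, where inhibitor mouse 3 was the highest of all 6. The log2 fold change was −0.06 (95% interval −0.43 to 0.30). Without inhibitor mouse 3 it was −0.26 and without inhibitor mouse 1 it was 0.05, neither past the threshold in the edgeR test (adjusted p = 0.279 and 0.932).

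**Figure D1:**
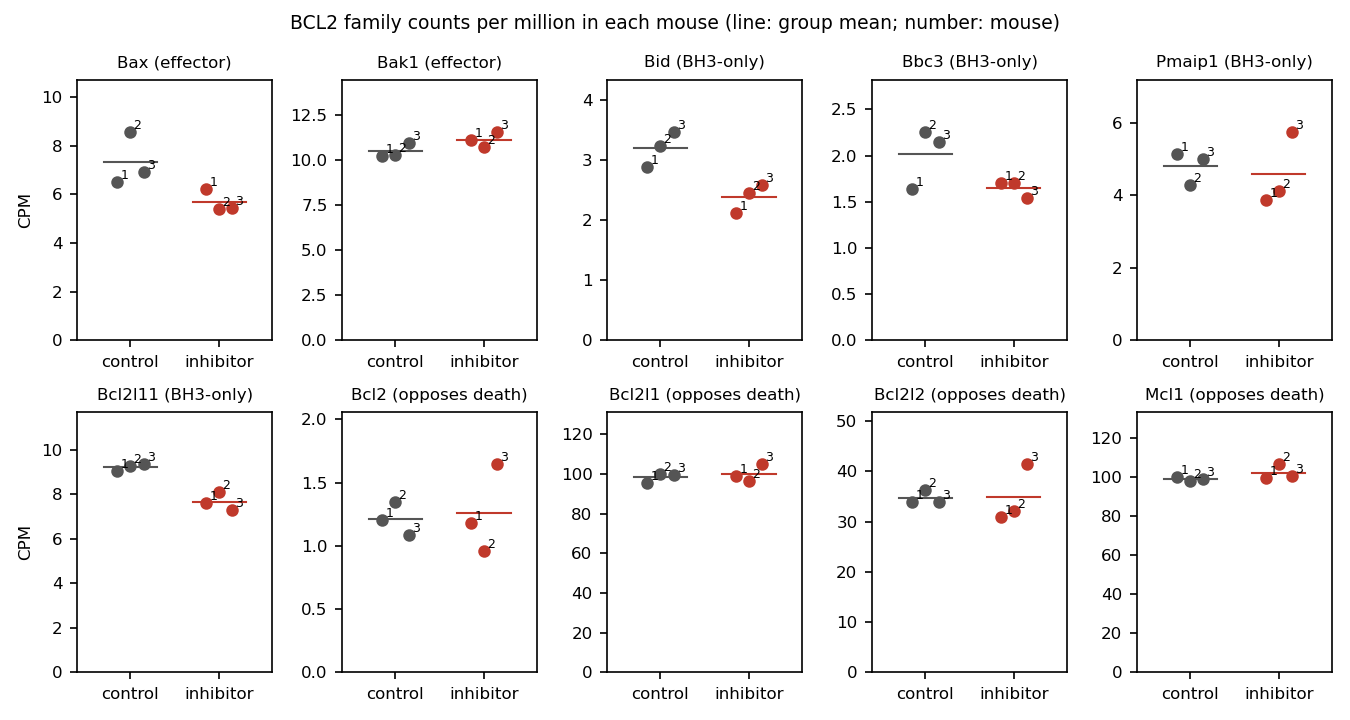
CPM (vertical axes, each starting at 0) of the 10 BCL2 family genes in control and inhibitor mice, with 1 numbered point per mouse and a line at each group mean. Bax, Bid and Bcl2l11 have no overlap between the groups, and inhibitor mouse 3 is the highest of the 6 mice in 5 of the panels.

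Of the genes that oppose death, Bcl2l1 and Mcl1 had the narrowest intervals of the 10 members. Bcl2l1, which encodes Bcl-xL, stood at 95.3, 99.9 and 99.6 CPM in controls and 98.9, 96.1 and 104.8 CPM with the inhibitor, and the groups overlapped. Its log2 fold change of 0.02 had a 95% interval from 0.939 to 1.10 times the control level. Mcl1, which encodes a short-lived protein that many cells need for survival, stood at 100.1, 97.7 and 98.8 CPM in controls and 99.5, 106.5 and 100.6 CPM with the inhibitor. Here too the groups overlapped, and the interval ran from 0.957 to 1.12 times the control level. The lowest library held 2198 fragments of Bcl2l1 and 2434 of Mcl1, and counting alone gave coefficients of variation of 1.87% and 1.86%. The intervals are therefore much narrower than those of the BH3-only genes, and they leave out changes of the size estimated for Bax or Bid.

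Bcl2l2, which encodes Bcl-w, stood at 34.0, 36.2 and 33.9 CPM in controls and 31.0, 32.2 and 41.4 CPM with the inhibitor. Inhibitor mouse 3 was above all other mice, and inhibitor mice 1 and 2 were below all controls. The log2 fold change was 0.01 (95% interval −0.22 to 0.23), and without inhibitor mouse 3 it was −0.14 (edgeR adjusted p = 0.173). An exonic stretch of 594 bases is shared with Gm20521, a protein-coding model on the same strand that was not analysed here. Bcl2, the founding member, was the least abundant, at 1.20, 1.34 and 1.09 CPM in controls and 1.18, 0.964 and 1.64 CPM with the inhibitor. The groups overlapped and the log2 fold change of 0.06 had a wide interval, −0.47 to 0.59, from 22 to 59 fragments per library.

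**Figure D2:**
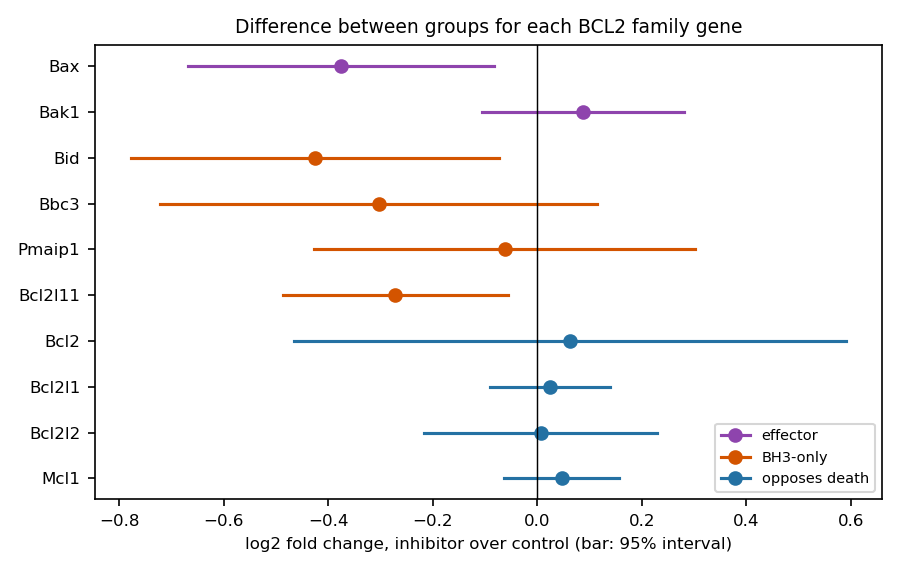
Log2 fold change of each gene, inhibitor over control (horizontal axis), with bars for the 95% interval of the edgeR fit and colours for effectors, BH3-only genes and genes that oppose death. The intervals of Bax, Bid and Bcl2l11 lie below 0 before adjustment over all genes, and those of Bcl2l1 and Mcl1 are the narrowest.

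The place of inhibitor mouse 3 was uneven across the family. It held the highest CPM of the 6 mice for 5 members (Bak1, Pmaip1, Bcl2, Bcl2l1 and Bcl2l2), while control 2 and control 3 did so for 2 each. It also held the lowest CPM for 2 members, Bbc3 and Bcl2l11. With this mouse left out, 4 members had an unadjusted p under the threshold (Bax, Bid, Bcl2l11 and Bcl2l2), all lower, beside 13.4% of all tested genes that were lower at that p in the same fit. None of the members passed over all genes, the smallest adjusted p being 0.090 for Bid in the edgeR test. In the same fit 14.3% of all tested genes passed. Of the 4 listed markers of epididymis, tissue next to the testis, Rnase10 stood at 0.070 CPM in that mouse and at 3.92 to 5.42 CPM in the others. The other epididymis markers did not stand apart there. Ros1 was at 1.40 CPM against 1.32 to 1.88 CPM, Defb41 at 0.175 CPM against 0.114 to 0.272 CPM, and Lcn8 at 0 in that library and at most 0.044 CPM elsewhere. Some testis markers, named after their values were seen, also set inhibitor mouse 3 apart from inhibitor mice 1 and 2. Clu was at 1127 against 869 and 870 CPM, Gata4 at 29.5 against 23.0 and 22.4 CPM, and Tnp1 at 1836 against 2795 and 2769 CPM. Others did not, among them Rhox5 (12.5 against 11.2 and 14.4 CPM) and Prm2 (4601 against 4640 and 4467 CPM). The part of these differences in the values of the family was not tested.

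Levels were compared between members per transcript length, with the FPKM values (fragments scaled to transcript length and library size) that the authors deposited. Bcl2l1 was highest, at 44.8 ± 1.55 FPKM (SD over all 6 mice), and made up 41.8% of the summed FPKM of the family. Mcl1 followed at 30.0 ± 0.944 FPKM, or 28.0% of the sum. Each of these was above the next gene in all 6 mice with no overlap in range. Bcl2l2 at 10.5 ± 1.13 FPKM and Bax at 9.58 ± 1.70 FPKM were not separated: Bcl2l2 was above Bax in 5 of 6 mice and their ranges overlapped. Bak1 came next at 5.88 ± 0.285 FPKM, below Bax in every mouse.

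The BH3-only genes formed a lower tier. Pmaip1 (1.88 ± 0.291 FPKM), Bcl2l11 (1.74 ± 0.180 FPKM) and Bid (1.62 ± 0.292 FPKM) overlapped in range, and Pmaip1 exceeded Bcl2l11 in only 3 of 6 mice. Bbc3 stood below Bid in all 6 mice, at 1.01 ± 0.160 FPKM. Bcl2 was lowest, at 0.187 ± 0.036 FPKM, a level that only 3.12% of all tested genes fell below, whereas 84.5% were below Bcl2l1. The order of all 10 was the same when CPM was divided by the length of the longest annotated transcript. The FPKM and CPM of Bcl2 did not move together between mice: control 1 had 0.230 FPKM and control 3 had 0.153 FPKM, from 30 and 32 fragments. The deposited FPKM therefore holds more than a scaling by depth for this gene, and how the authors' software divided its fragments among transcripts is not given in the sources used here.

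**Figure D3:**
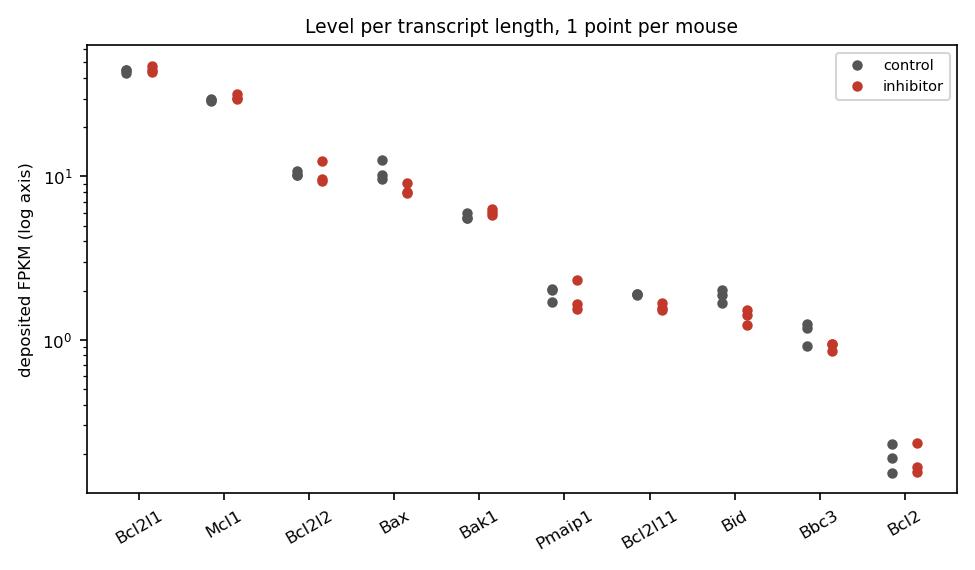
Deposited FPKM of the 10 genes on a log axis, in order of their mean, with 1 point per mouse and control and inhibitor mice side by side. Bcl2l1 and Mcl1 lead at 44.8 and 30.0 FPKM on average, the BH3-only genes lie between about 1 and 2 FPKM, and Bcl2 is lowest at 0.187 FPKM.

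Ratios within a mouse set the promoting genes against the opposing ones. The summed FPKM of the 6 promoting genes was 21.7, 24.8 and 23.3 in controls and 20.5, 19.4 and 20.5 in inhibitor mice. The 4 opposing genes summed to 83.6, 85.1 and 85.0 FPKM in controls and 83.9, 85.2 and 90.5 FPKM in inhibitor mice. The ratio of promoting to opposing was 0.260, 0.292 and 0.274 in controls and 0.244, 0.228 and 0.227 in inhibitor mice. The groups did not overlap, with means of 0.275 ± 0.016 and 0.233 ± 0.009 (SD, n = 3 per group). Bax holds the largest FPKM among the promoting genes and so weighs most in this sum. With the BH3-only genes alone in the numerator the ratio was 0.080 ± 0.003 in controls and 0.066 ± 0.003 in inhibitor mice, without overlap. These ratios are not separate from the single genes, since Bax, Bid and Bcl2l11, already without overlap, enter the sums. Of all tested genes, 22.9% had groups without overlap in either direction. The sums are over whole testis, so they do not describe a balance within any cell type.

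These ratios are given without a test, since they are built from members chosen with results known, and an RNA ratio does not weigh the proteins' affinities. The Bax to Bcl2 ratio, often used as an index of readiness to die, was 41.8, 66.8 and 66.9 in controls and 55.2, 51.3 and 34.8 in inhibitor mice. Its groups overlapped, since control 1 lay between the inhibitor mice, and the denominator rested on the 22 to 59 Bcl2 fragments given above. The ratio of Bax to Bcl2l1 was 0.223, 0.279 and 0.226 in controls and 0.204, 0.182 and 0.169 in inhibitor mice. Its denominator is among the most deeply counted of the family, and its groups did not overlap, as for Bax alone.

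**Figure D4:**
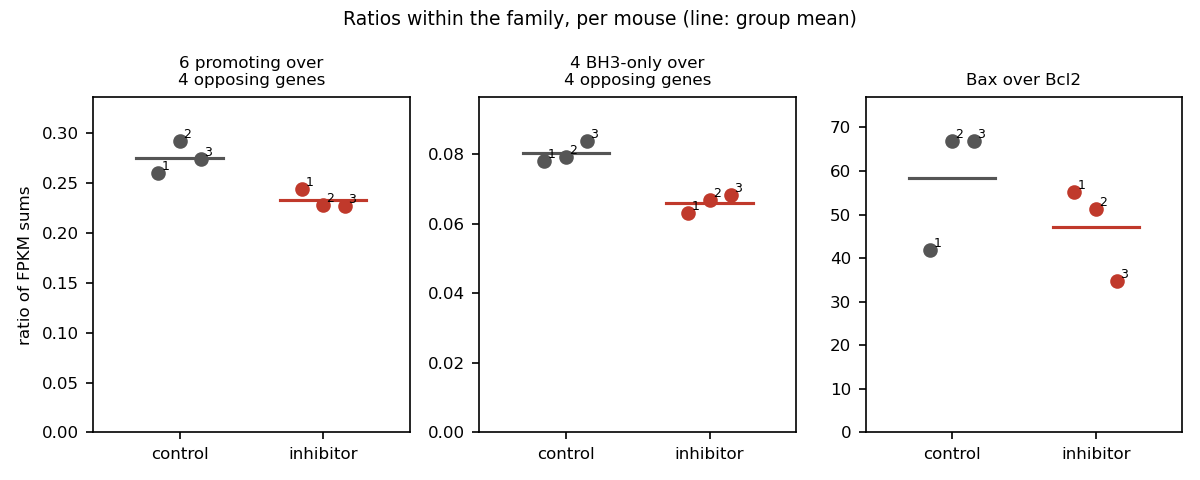
Ratios of deposited FPKM in each mouse (vertical axes starting at 0) for the 6 promoting over the 4 opposing genes, the 4 BH3-only over the 4 opposing genes, and Bax over Bcl2, with a line at each group mean. The first and second ratios do not overlap between the groups (means 0.275 and 0.233, and 0.080 and 0.066), and Bax over Bcl2 does.

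The other genes of the family and of the routes around it were taken as lists. Of 17 further BCL2 family genes 12 were expressed enough to be tested, and none passed in either direction (edgeR, 2 higher and 0 lower at an unadjusted p of 0.05). At that unadjusted p, 9.43% of all tested genes were higher and 8.48% lower, and the same shares apply to the lists below. The median log2 fold change of this list was 0.07, with 10 of 12 above 0, as were 8157 of all 16658 tested genes. The smallest p values were those of Bnip3l (0.15, adjusted p = 0.184), which encodes a mitophagy receptor, Bnip1 (0.19, adjusted p = 0.198), a protein of membrane fusion at the endoplasmic reticulum, and Bcl2l14 (0.09, adjusted p = 0.340), all by edgeR. Bcl2l14 was abundant in these testes, at 419 ± 23.4 CPM in controls and 447 ± 10.4 CPM with the inhibitor (SD, n = 3 per group). Bik, whose loss together with that of Bim is known to stop spermatogenesis, and Bok, an effector-like member, were named after their values were seen. Bik was at 5.69 ± 0.850 and 5.73 ± 0.504 CPM, and Bok at 5.42 ± 0.622 and 5.44 ± 1.47 CPM. Hrk, Bcl2l10 and 3 Bcl2a1 copies did not pass the filter on low counts, and the copies are near-identical, so their fragments may be divided among them.

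Downstream of the family lie the apoptosome, the caspases and their inhibitors. None of the 23 genes of that list passed (edgeR, 4 higher and 2 lower at an unadjusted p of 0.05), and its median log2 fold change was 0.01. Casp2, an initiator caspase, stood at 10.7 ± 0.571 CPM in controls and 8.16 ± 0.902 CPM with the inhibitor, with a log2 fold change of −0.39 (adjusted p = 0.110, edgeR) and no overlap. Vdac3, a channel of the outer mitochondrial membrane, was at 0.16 (adjusted p = 0.128) and Birc5, which encodes survivin and acts mainly in cell division, at 0.20 (adjusted p = 0.130), also by edgeR. DESeq2 called 1 gene of the list, Birc6, lower (log2 fold change −0.38, adjusted p = 0.035), and gave an adjusted p for 16 of the 23. Over all 16658 tested genes it called 538, or 3.23%. It gave no adjusted p for 5814 of them, so the share among genes with one was higher. The Birc6 groups overlapped, and its edgeR adjusted p was 0.236. Without inhibitor mouse 3, 4 genes of this list passed as higher and 1 as lower in the edgeR test (Birc5, Cyct, Diablo and Vdac3, and Casp2), in a fit where 14.3% of all tested genes passed.

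The p53 list, which holds the transcription factor upstream of Puma and Noxa and its targets, had no gene past the threshold among 20 (edgeR, 1 higher and 3 lower at an unadjusted p of 0.05). Its median log2 fold change was −0.05, and 14 of 20 were below 0, as were 51% of all tested genes. Zmat3, an RNA-binding protein gene induced by p53, was at 0.23 (edgeR adjusted p = 0.197), Trp53inp1, a stress-induced gene, at −0.20 (0.208) and Sesn2, a sestrin that restrains growth signalling under stress, at −0.19 (0.264). Cdkn1a, the p53 target that encodes p21 and was named after its values were seen, was at 12.5 ± 1.17 CPM in controls and 12.3 ± 1.08 CPM with the inhibitor. Mdm2, which encodes the ubiquitin ligase that limits p53 and was likewise named, was at 190.9 ± 1.08 and 190.7 ± 7.52 CPM.

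Among 10 tested genes of the death receptor route none passed (edgeR, 0 in either direction at an unadjusted p of 0.05), with a median of −0.07. Fasl, the ligand of the Fas receptor, had the largest estimate, 0.78 on the log2 scale (SE 0.370, adjusted p = 0.292 by edgeR), from levels of only 0.494 ± 0.185 and 0.890 ± 0.335 CPM, and its groups overlapped. Tnfrsf21, a death domain receptor, was at −0.24 (adjusted p = 0.346) and Tnfsf10, which encodes the ligand TRAIL, at 0.27 (adjusted p = 0.398), both by edgeR. Of the 20 survival signalling and regulator genes none passed (edgeR, 2 higher and 4 lower at an unadjusted p of 0.05), and the median was −0.11. Foxo1, a FOXO factor that is also in the list of undifferentiated spermatogonia, came nearest. Its values were 13.7, 13.1 and 12.2 CPM in controls and 9.07, 8.36 and 10.4 CPM with the inhibitor, without overlap (a log2 difference of −0.48, with adjusted p = 0.081 by edgeR).

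Ddit3, the stress gene that encodes CHOP, an activator of Bim in some cells, was at 0.19 (edgeR adjusted p = 0.128). Usp9x, a deubiquitinase that stabilises Mcl-1, was at −0.20 (edgeR adjusted p = 0.151). In DESeq2, Foxo1 and Huwe1, a ubiquitin ligase gene for Mcl-1, passed as lower (adjusted p = 0.015 and 0.008). It gave an adjusted p for 18 of the 20 survival genes, and called 538 of all 16658 tested genes, or 3.23%. The Huwe1 groups overlapped, and its edgeR adjusted p was 0.189. Foxo1 passed in edgeR when no filter on low counts was applied (adjusted p = 0.048), where 58 genes were called higher and 57 lower among 20571. Without inhibitor mouse 3, where 14.3% of all tested genes passed, further genes of these lists passed in edgeR: Bnip1 was higher in the family list, Trp53 and Sesn2 were lower in the p53 list, Tnfrsf21 was lower in the death receptor list, and Ddit3 and Ywhae were higher and Foxo1 lower in the survival list. Among all tested genes, the 5th and 95th percentiles of the log2 fold change were −0.37 and 0.33.

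**Figure D5:**
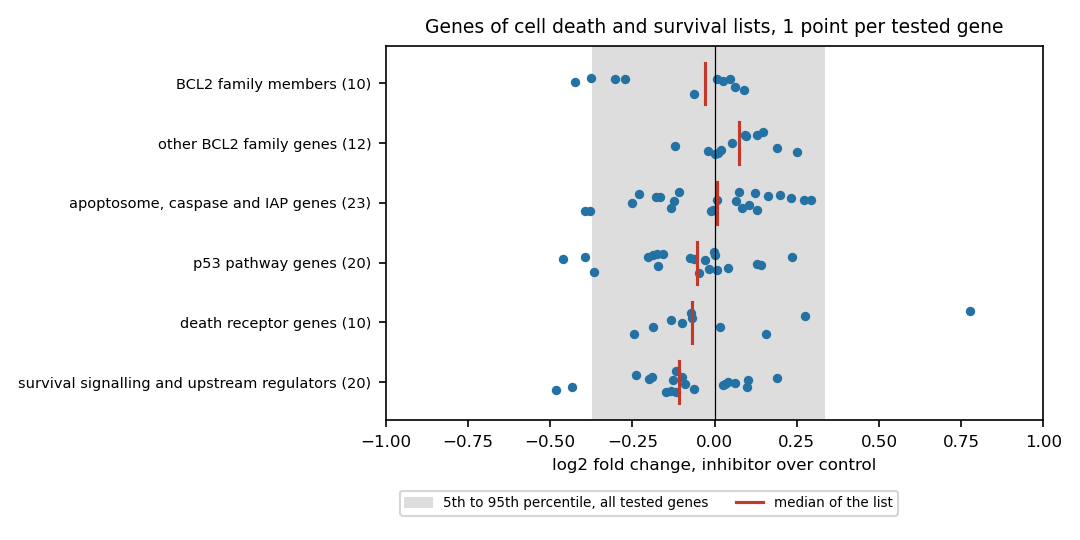
Log2 fold change, inhibitor over control (horizontal axis), for each tested gene of 6 lists of cell death and survival (number of genes in brackets), with a red line at each list's median and a grey band from the 5th to the 95th percentile of all tested genes. The medians lie between −0.11 and 0.07, and Fasl, at 0.78, is the point farthest from 0.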

How the data were processed

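The deposited table gives fragments per gene and library and FPKM for 6 libraries; per the labels' protocols these were directional libraries from 500 ng of RNA, poly(A)-selected, read as 81 nt single ends. Tools named in the submitters' processing notes are TopHat2 2.0.13, Cuffdiff 2.2.1 and cutadapt 1.8, with build mm10; no source used here gives the annotation or strand setting. The fragments, which the authors deposited unscaled, are expected counts (98.8% of values whole within 1e-06, all those of the members), and were rounded. The FPKM values were scaled and deposited by the authors. The table was tested with edgeR 4.0.16 (R 4.3.3): filterByExpr, TMM scaling, robust quasi-likelihood F-test, two-sided, with adjustment over all 16658 genes. Intervals are from the same fit. The common biological coefficient of variation was 8.02%. Alternatives were RLE or total scaling, DESeq2 1.42.0, limma 3.58.1 (voom; log2 of FPKM plus 1 or 0.1), other filters, the mouse number as a block, a length and GC correction (loess, span 0.5) and each mouse left out; the procedure was tested on simulated data. Positions and transcripts are from GENCODE M21 (GRCm38, the same assembly as mm10), promoters from RefSeq.

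Members and lists were chosen with earlier results of these data known. The text names the members and, from each other list, genes past the threshold or otherwise the 3 with the smallest p; other names are identified as chosen later. The labels give each library as 1 mouse.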

Additional observations from a re-analysis of the deposited data

How the results depend on the processing

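None of the 10 BCL2 family genes passed in any of the 17 alternatives, in either direction. DESeq2 gave no adjusted p for 5 of them, and 2 (Bbc3 and Bcl2) were not tested when at least 50 counts in 3 libraries were required. Bax, Bid, Bbc3 and Bcl2l11 were below 0 and Bak1 and Mcl1 above 0 in every alternative that tested them. Estimates near 0 changed sign, and the cause was not tested. With single mice left out, log2 fold changes ran from −0.26 to 0.051 for Pmaip1 (above 0 without inhibitor mouse 1, at 0.051, or 2, at 0.0047), from −0.18 to 0.21 for Bcl2, from −0.011 to 0.051 for Bcl2l1 and from −0.14 to 0.088 for Bcl2l2. The lowest value of each of these 4 came without inhibitor mouse 3. Bcl2 was at −0.0078 and −0.033 by limma on log2(FPKM + 1) and log2(FPKM + 0.1), and Bcl2l1 at −0.0061 with library totals. Bcl2l2 was at −0.024 with library totals, −0.0056 by voom, −0.0015 and −0.0025 by limma on FPKM, and −0.0030 with the replicate block.

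The same mouse numbers occur in both groups. The correlations of same-numbered libraries' deviations were 0.062, −0.12 and −0.020, within the range of different-numbered libraries, −0.159 to 0.173. With 3 libraries per group these values cannot decide whether the numbers pair the mice. With the replicate block 0 genes were called higher and 5 lower over all genes, and 0 and 2 with the block and the length and GC correction together; no member was called. Over all genes, against 10 higher and 16 lower, the counts were 4 higher with library totals, 368 and 170 by DESeq2, 3 higher by voom, 0 and 0 by limma on log2(FPKM + 1), 0 and 1 on log2(FPKM + 0.1), 58 and 57 without a filter, and 3 and 7 with at least 50 counts. With each mouse left out they ranged from 0 to 1470 higher and from 0 to 935 lower. DESeq2 called 1 gene lower in the apoptosome list and 2 in the survival list, and the fit without a filter 1 in the survival list. Leaving out single mice gave 0 to 1 higher in the list of other family genes, 0 to 4 higher and 0 to 1 lower in the apoptosome list, 0 to 2 lower in the p53 list, 0 to 1 lower in the death receptor list, and 0 to 2 higher and 0 to 1 lower in the survival list. The ratio of promoting to opposing FPKM, 0.254 over all mice, was 0.207 with counts per kilobase of the longest transcript; the cause was not tested. Counting alone gave coefficients of variation of 17% for Bcl2 and 13.9% for Bbc3, beside fitted biological ones of 15.2% and 12.7%.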
